A study of Homo sapiens with 6 samples.

Results

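Oxidative phosphorylation was described through the transcripts of the respiratory chain complexes I to IV and of ATP synthase (complex V). The members were all rows whose gene symbol starts with MT-ND, MT-CO, MT-ATP, MT-CYB, NDUFA, NDUFB, NDUFC, NDUFS, NDUFV, UQCR, COX4 to COX8 or ATP5, or is SDHA, SDHB, SDHC or SDHD. This gave 109 of 20111 genes, of which 95 encode a subunit, 82 in the nucleus and 13 in the mitochondrial genome. Complex I had 44 subunit genes (37 nuclear, 7 mitochondrial), complex II 4 (all nuclear), complex III 9 (8 and 1), complex IV 21 (18 and 3) and complex V 17 (15 and 2). The other 14 members encode no subunit: 8 assembly factors, a factor of supercomplexes (COX7A2L), a readthrough transcript (NDUFC2-KCTD14), the pseudogenes COX6A1P2 and ATP5EP2, and ATP5L2 and ATP5S. NDUFA4 and NDUFA4L2 were counted in complex IV. The symbols leave out CYC1, the cytochrome c1 subunit of complex III, so the counts, sums and ratios of complex III do not hold it.

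RNA was sequenced from MDA-MB-231, a long-used human breast cancer line that is triple negative for receptors. Cells received siControl, siNCOA3 or siSHC1 by transfection and were collected after 24 h or 48 h. NCOA3 encodes a coactivator of nuclear receptors and SHC1 an adaptor of receptor tyrosine kinases, and siControl is the control siRNA. There was 1 library for each of the 3 siRNAs and 2 times, 6 in all, so the 2 times served as the replicates of an siRNA. Nothing in the labels tells if separate cultures were used, so the p-values reflect no more than how these 6 libraries vary, and that variation may be technical.

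Electrons from NADH enter the chain at complex I and those from succinate at complex II, pass over ubiquinone to complex III and over cytochrome c to complex IV, and are taken up by oxygen. Complexes I, III and IV pump protons across the inner mitochondrial membrane, and ATP synthase uses the gradient to make ATP. All complexes but complex II are built from proteins of both genomes, so that nuclear and mitochondrial transcripts serve the same enzymes. The mitochondrial genome is transcribed as long transcripts from both of its strands that are cut into shorter RNAs, not all of which carry a single gene.

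Values are FPKM, fragments scaled to transcript length and to library size, which lets levels of genes be set side by side. Libraries were made with an mRNA kit. Whether it captured nuclear and mitochondrial transcripts, MT-ND6 among them, equally well was not tested, and levels between genes carry this limit. Differences are given on the scale of log2(scaled FPKM + 1), from limma with its standard error (SE), where scaled means brought to a common level between libraries. The lowest total FPKM was 495518 (siControl, 24 h) and the highest 553073 (siSHC1, 24 h). The depth relative to siControl at 24 h, read from the steps of low values, was 1.01 to 1.45. NCOA3 stood at 10.3 and 11.4 FPKM after siControl, 1.72 and 1.85 after siNCOA3, and 12.7 and 12.5 after siSHC1, at 24 h and 48 h in each case. SHC1 stood at 103 and 119 FPKM after siControl, 109 and 107 after siNCOA3, and 14.7 and 15.5 after siSHC1. NCOA3 fell by 2.13 ± 0.10 after siNCOA3 (limma adjusted p = 0.00122) and, with siSHC1, SHC1 fell by 2.83 ± 0.08 (limma adjusted p = 5.11e-05), so each target was low where its label says. Of 13 markers found for the line and for other cell types, VIM and CD44 were at 473 FPKM or more in every library and PGR and KRT5 were listed at 0. ESR1, PTPRC, CD3E and ALB stayed below 0.1 FPKM. ERBB2 was at 26.9 to 35.5 FPKM, CD68 at 44.3 to 63.1 FPKM, EPCAM at 6.65 to 10.7 FPKM and CDH1 at 0.572 FPKM or less. COL1A1, at 2.16 to 7.47 FPKM, rose by 1.12 ± 0.12 after siSHC1 (limma adjusted p = 0.00776), the only one of the 6 tested markers that was called, and its part in the other results was not tested.

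Promoter sequences are shown for the members that passed the test after siSHC1 and have an entry in RefSeq (GRCh38.p14), as 250 bases before to 50 after the gene's start. The window of NDUFA7, an accessory subunit of complex I, is chr19:8321326-8321625 on the minus strand. That of NDUFA3, another accessory subunit of complex I, is chr19:54102605-54102904 on the plus strand. COX7A2, the widely expressed form of subunit VIIa of complex IV, has 2 windows in the table, of which the one with a match is chr6:75243752-75244051 on the minus strand. Capitals mark the core letters of NRF1 (GCGCANGCG), YY1 (AAGATGG) and the oestrogen-related receptor (AAGGTCA), read on both strands.
NDUFA7: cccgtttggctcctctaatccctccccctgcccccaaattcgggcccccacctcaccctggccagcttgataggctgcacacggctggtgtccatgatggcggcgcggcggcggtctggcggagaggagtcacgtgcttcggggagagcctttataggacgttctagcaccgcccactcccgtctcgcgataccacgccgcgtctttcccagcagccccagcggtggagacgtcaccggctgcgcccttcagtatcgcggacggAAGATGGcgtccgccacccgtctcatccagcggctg
NDUFA3: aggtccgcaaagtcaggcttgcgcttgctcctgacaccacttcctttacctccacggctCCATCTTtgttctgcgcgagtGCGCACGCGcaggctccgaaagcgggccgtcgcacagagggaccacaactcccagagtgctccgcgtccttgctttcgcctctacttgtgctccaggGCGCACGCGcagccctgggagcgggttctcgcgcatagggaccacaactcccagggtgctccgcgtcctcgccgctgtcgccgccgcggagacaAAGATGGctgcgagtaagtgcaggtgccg
COX7A2: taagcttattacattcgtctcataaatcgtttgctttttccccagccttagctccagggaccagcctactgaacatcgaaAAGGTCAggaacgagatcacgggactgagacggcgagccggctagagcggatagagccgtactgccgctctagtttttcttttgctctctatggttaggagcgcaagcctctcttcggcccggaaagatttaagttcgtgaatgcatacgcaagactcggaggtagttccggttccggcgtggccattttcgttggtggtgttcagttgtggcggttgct
NDUFA3 holds 4 such matches (NRF1 and YY1, 2 each), NDUFA7 holds 1 (YY1) and this window of COX7A2 holds 1 (oestrogen-related receptor), while the other COX7A2 window holds 0. Across the 64 of 76 tested nuclear subunit genes with an entry, the NRF1 core was found in 34.4%, against 17.7% of tested genes and 12.5% of all coding genes in the table. The ETS core that GABP binds (CCGGAAG) was found in 31.3% against 23.9% and 16.5%, the YY1 core in 28.1% against 9.73% and 7.90%, and the core of the oestrogen-related receptor in 15.6% against 3.69% and 4.26%. The CCAAT box was found in 32.8% against 43.5% and 42.1%. These letters were chosen after the data had been seen, and those of NRF1 were loosened by 1 open letter after a first search with GCGCATGCG. The stricter letters gave 17.2% of members against 4.41% of tested genes, and 15.6% against 3.88% in the first window of each gene alone, the form first searched. Members with the NRF1 core had a median difference of 0.11 after siNCOA3 and 0.10 after siSHC1, and those without it 0.10 and 0.12. With the ETS core the medians were 0.12 and 0.15 (without it 0.09 and 0.11), with the YY1 core 0.09 and 0.11 (0.11 and 0.13) and with the CCAAT box 0.11 and 0.10 (0.10 and 0.13). The 10 members with the core of the oestrogen-related receptor had 0.08 and 0.05, and those without it 0.11 and 0.13. These medians were not tested. A match is a description of these letters, not a site of binding. Of the members called after siSHC1, ATP5J2 had no entry.

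Transcripts of the mitochondrial genome stood far above those of the nucleus. The median of the 13 mitochondrial subunit transcripts was 6679 FPKM, 80.4-fold the median of 83.0 FPKM of the 76 nuclear subunit transcripts tested, while the median of the 11690 tested genes was 13.1 FPKM. The highest was MT-ATP8, a small subunit of ATP synthase, and the lowest of that genome MT-ND6, a core subunit of complex I and the only mitochondrial member read from the other strand. MT-ATP8 stood at 23950 and 25563 FPKM after siControl, 24997 and 22840 after siNCOA3, and 28912 and 24032 after siSHC1. MT-ND6 stood at 448 and 354 FPKM after siControl, 468 and 427 after siNCOA3, and 453 and 291 after siSHC1, and its mean of 407 FPKM was above that of every nuclear member but COX7A2 and ATP5J2.

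**Figure D1:**
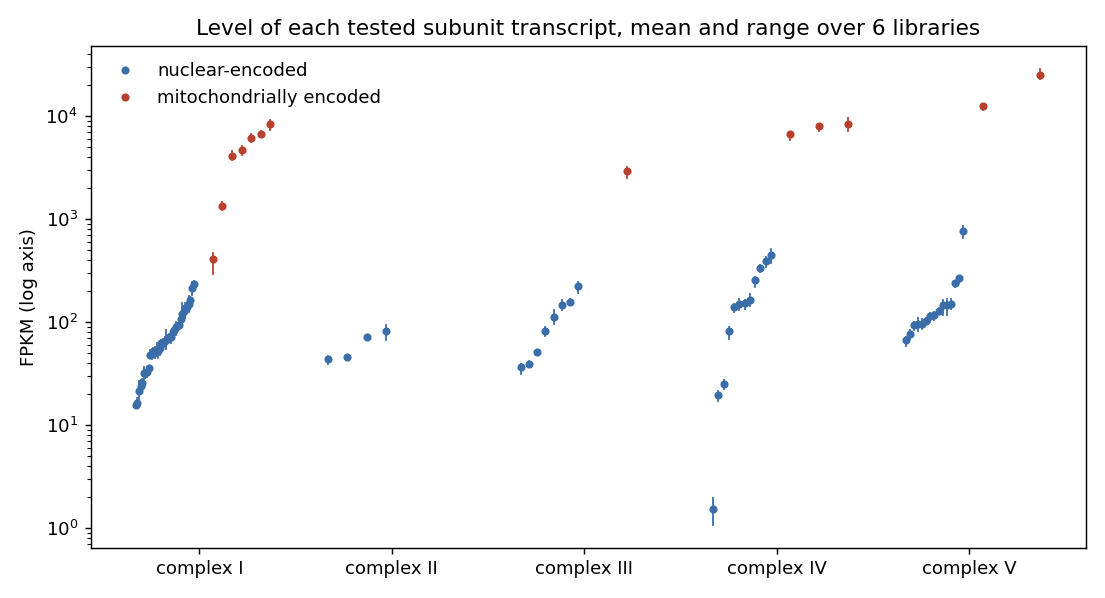
Level of each tested subunit transcript in FPKM (log axis) by complex, with the mean over 6 libraries as a point and the range as a line, for nuclear and mitochondrial genes. The mitochondrial transcripts lie above the nuclear ones of the same complex, with MT-ATP8 at a mean of 25049 FPKM on top and COX7B2 at 1.52 FPKM at the bottom.

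Within complex I the nuclear subunits ran from NDUFA5, an accessory subunit, at 15.6 FPKM to NDUFS5, also accessory, at 234 FPKM. In complex II they ran from the membrane anchor SDHD at 43.6 FPKM to the anchor SDHC at 82.4 FPKM, the narrowest range (1.89-fold). In complex III the core protein UQCRC2 was lowest at 36.4 FPKM and UQCRQ, a small subunit near cytochrome b, highest at 224 FPKM. In complex IV the range was from COX7B2 at 1.52 FPKM to COX7A2 at 447 FPKM, and in complex V from ATP5L (subunit g) at 66.9 FPKM to ATP5J2 (subunit f) at 775 FPKM.

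The isoforms of complex IV that other tissues use were hardly seen. COX4I2, COX6A2 and COX8C were listed at 0 in all 6 libraries, and COX7A1, COX6B2 and NDUFA4L2 never passed 0.183 FPKM, so these 6 were not tested. Their counterparts COX4I1, COX6A1, COX8A, COX7A2, COX6B1 and NDUFA4 had means of 153, 164, 390.2, 447, 333 and 25.02 FPKM. COX7B2, a form of COX7B known from testis, was at 1.08 to 1.98 FPKM, a ratio of 0.0507 to 0.0939 to COX7B.

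Some members overlap or closely resemble others in sequence. MT-ATP8 and MT-ATP6, another subunit of ATP synthase, overlap by 46 bases of the mitochondrial genome (GRCh38, chrM:8527-8572), 22.2% of MT-ATP8. MT-ND4L and MT-ND4, core subunits of complex I, overlap by 7 bases (chrM:10760-10766). The larger overlap is shown, with the start codon of MT-ATP6 in capitals.
MT-ATP8/MT-ATP6: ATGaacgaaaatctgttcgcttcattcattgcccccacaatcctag
The authors' build is not GRCh38, and how shared reads were counted, and whether by strand, is not given in the sources used here. This touches MT-ND6 too, since the opposite strand is also transcribed. MT-ATP8 was 1.86 to 2.18 times MT-ATP6 over the libraries, and MT-ND4L 1.18 to 1.28 times MT-ND4. Whether the members of such a pair differ in level as separate RNAs cannot be told from these ratios. The pseudogene COX6A1P2 was listed at 0.461 to 0.478 of COX6A1 in every library, and ATP5EP2 at 0.379 to 0.464 of ATP5E, so the split between gene and copy is uncertain. The readthrough NDUFC2-KCTD14 was less even, at 0.0801 to 0.159 of NDUFC2.

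In each library the mitochondrial subunits held 17.3% to 18.7% of all FPKM and the nuclear subunits 1.56% to 1.67%. The mitochondrial sum was 11.1 and 11.4 times the nuclear sum after siControl (24 h and 48 h), 10.5 and 10.3 times after siNCOA3, and 11.4 and 10.5 times after siSHC1. Both siNCOA3 libraries lay below both siControl libraries, while those of siSHC1 lay on both sides. The scaled nuclear sum was 6.56% and 8.71% above siControl of the same time after siNCOA3, and 7.65% and 11.7% after siSHC1. The mitochondrial sum was 1.16% above and 0.992% below siControl after siNCOA3, and 11.2% and 3.11% above after siSHC1. In these bulk samples a difference in some of the cells and a difference in all of them cannot be told apart. These sums and their ratios are given as values and were not tested.

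**Figure D2:**
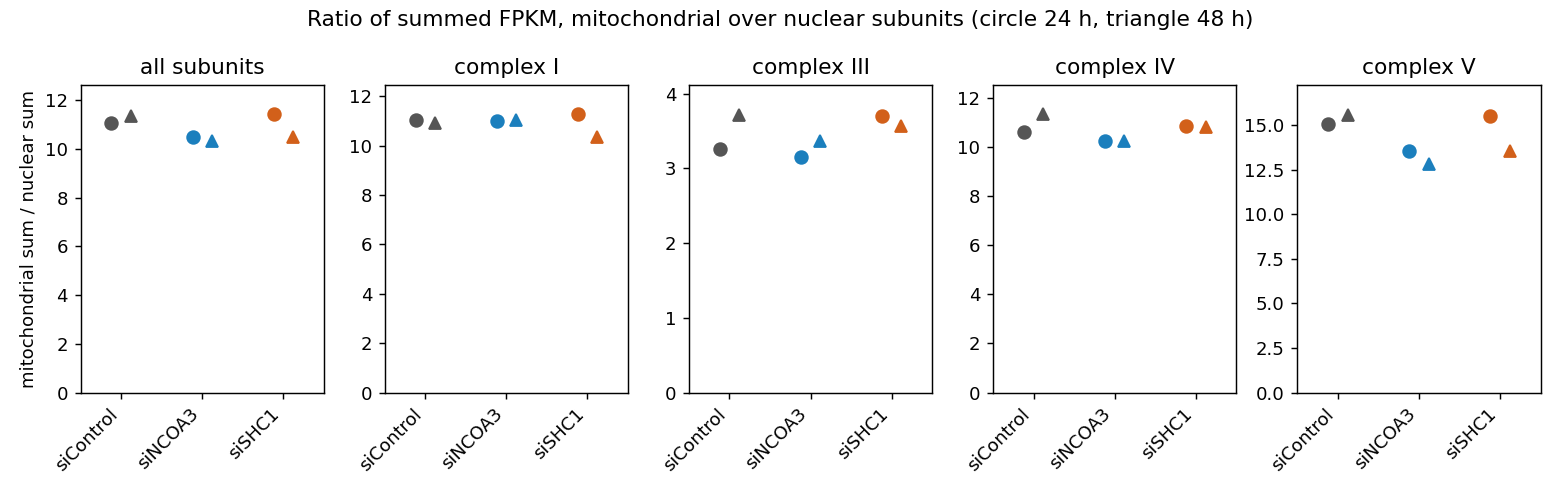
Ratio of summed FPKM of mitochondrial over nuclear subunits, for all subunits and for complexes I, III, IV and V, with 1 point per library (circle 24 h, triangle 48 h) and axes from 0. In complex V both siNCOA3 libraries (13.6 and 12.9) lie below both siControl libraries (15.1 and 15.6), while in complex I all libraries lie between 10.3 and 11.3.

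By complex, the ratio of mitochondrial to nuclear sums in complex V was 15.1 and 15.6 after siControl, 13.6 and 12.9 after siNCOA3 and 15.5 and 13.6 after siSHC1. In complex I all 6 libraries lay between 10.3 (siSHC1, 48 h) and 11.3 (siSHC1, 24 h). In complex IV it was 10.6 and 11.3, 10.2 and 10.3, and 10.8 and 10.8, and in complex III, with MT-CYB alone from the mitochondrial genome, 3.26 and 3.71, 3.15 and 3.36, and 3.70 and 3.56. The siNCOA3 libraries were thus below both siControl libraries in complexes IV and V and not in complexes I and III. Against siControl of the same time, however, the ratio after siNCOA3 was lower at both times in complex III too. It differed by -3.44% at 24 h and -9.54% at 48 h in complex III, and by -3.44% and -9.47% in complex IV. In complex V it differed by -10.1% and -17.4%, and in complex I by -0.294% and 1.31%.

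Setting siNCOA3 against siControl addresses which of these transcripts differ after siNCOA3. Effects of this siRNA on transcripts other than NCOA3 cannot be told apart here from effects of low NCOA3. No member passed the test: limma called 0 of 103 tested members, where it called 0.111% of all tested genes. At an unadjusted p under 0.05 there were 12 members (11.7%), against 10.5% of all tested genes. In 55 members (53.4%) both siNCOA3 libraries were above both siControl libraries, which 20.1% of all tested genes were, and in 7 (6.80%) both were below, against 19.3%. The median difference was 0.10 over the 90 nuclear members, 74 of which were above 0, and 0.05 over the 13 mitochondrial members, 10 of which were above 0, where that of all tested genes was -0.00064. At 24 h the nuclear median was 0.08 and at 48 h 0.11. Under the other scalings tried, the nuclear median was from 0.07 to 0.15. A change of scaling shifts all genes of a library nearly alike, so this range does not set members against other genes.

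The largest differences per complex were small and did not pass the test. NDUFA7 stood at 16.6 and 16.8 FPKM after siControl, 20.7 and 22.4 after siNCOA3, and 24.5 and 26.8 after siSHC1, a difference of 0.30 ± 0.10 after siNCOA3 (limma adjusted p = 0.377). UQCRH, the hinge protein of complex III, stood at 133 and 131 FPKM after siControl, 165 and 162 after siNCOA3, and 149.8 and 137 after siSHC1, a difference of 0.25 ± 0.07 (limma adjusted p = 0.347). For both genes the siNCOA3 libraries lay above the siControl ones. COX5B, a subunit of the matrix side of complex IV, was 0.25 ± 0.09 higher, and ATP5G1, one of 3 genes of the c subunit of ATP synthase, 0.27 ± 0.10 higher, with limma adjusted p of 0.411 and 0.416. UQCR10 (0.17), COX7B (0.18) and ATP5J2 (0.20) followed. Over the alternatives ATP5G1 ran from 0.11 to 0.44, NDUFA7 from 0.19 to 0.41 and COX7B from 0.096 to 0.27. In the other direction, NDUFB2, an accessory subunit of complex I, stood at 148 and 152 FPKM after siControl, 131 and 126 after siNCOA3, and 173 and 179 after siSHC1. Its siNCOA3 libraries were below all others, with a difference of -0.27 ± 0.07 (limma adjusted p = 0.318).

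Complex II, the complex with no mitochondrial subunit, had a median of 0.01 after siNCOA3 and -0.04 after siSHC1 over its 4 genes. SDHC, the gene with the largest difference there after siNCOA3 (0.14 ± 0.12, limma adjusted p = 0.711), stood at 66.6 and 93.1 FPKM after siControl, 89.2 and 91.3 after siNCOA3, and 80.2 and 74.2 after siSHC1, so the siControl libraries were the lowest and the highest of the 6. SDHB, the iron-sulphur subunit, differed by 0.04 ± 0.09 after siNCOA3, and SDHD by -0.13 ± 0.09 after siSHC1 (limma adjusted p = 0.402).

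**Figure D3:**
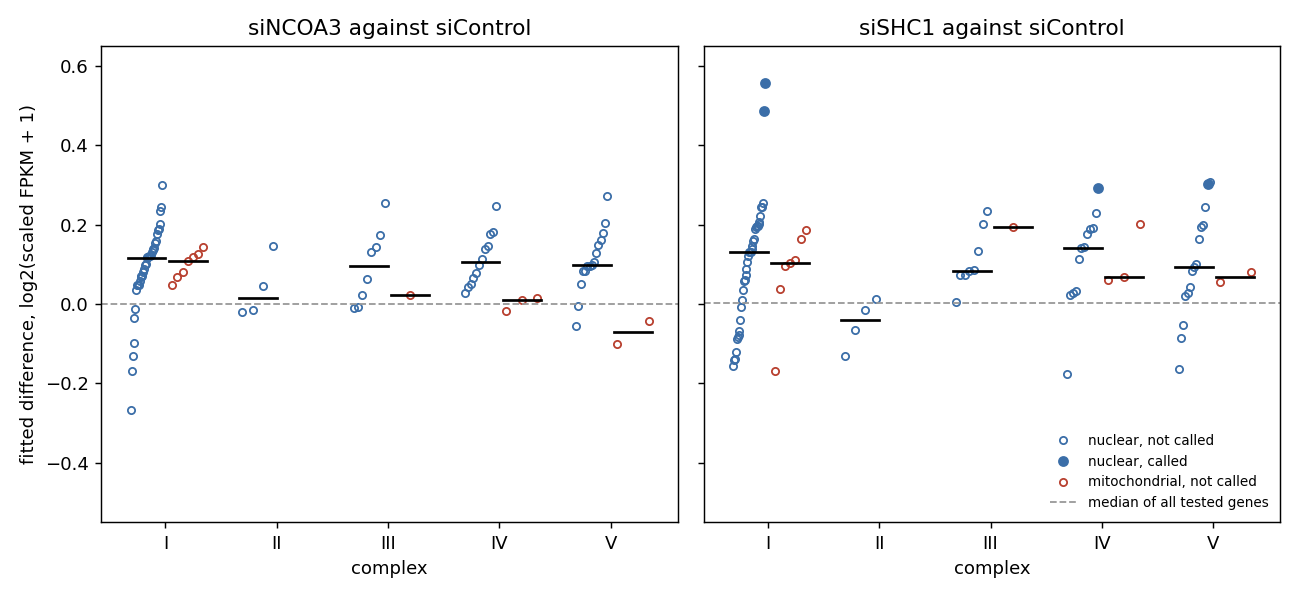
Fitted difference from siControl on the log2(scaled FPKM + 1) scale for each tested subunit transcript by complex, after siNCOA3 (left) and siSHC1 (right), with filled points for called members, black bars for the median of each complex and genome, and a dashed line for the median of all tested genes. After siNCOA3 the 2 mitochondrial members of complex V lie below 0 and no point is filled, and after siSHC1 the filled points are NDUFA7, NDUFA3, COX7A2 and ATP5J2.

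The comparison of siSHC1 with siControl asks the same of siSHC1, with the same limit. In it 4 members rose and none fell: NDUFA7 and NDUFA3 of complex I, COX7A2 of complex IV and ATP5J2 of complex V. They made up 3.88% of tested members, where 6.42% of all tested genes were called and 3.11% were called higher. In 54 members (52.4%) both siSHC1 libraries were above both siControl libraries, against 24.1% of all tested genes, and in 9 (8.74%) both were below, against 23.9%. At an unadjusted p under 0.05 there were 27 members (26.2%), against 26.3% of all tested genes. The nuclear median was 0.10, with 67 of 90 above 0, and the mitochondrial median 0.09, with 12 of 13 above 0, beside 0.0035 for all tested genes. Under the other scalings, which likewise shift all genes, the nuclear median was from 0.04 to 0.14.

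NDUFA7, with the values given above, rose by 0.56 ± 0.10 after siSHC1 (n = 2 libraries of each siRNA, limma adjusted p = 0.0280). The SE comes from the limma fit over all 6 libraries. For NDUFA7 the 2 siSHC1 libraries were the highest of the 6. NDUFA3 stood at 89.1 and 112 FPKM after siControl, 116 and 115 after siNCOA3, and 135 and 153 after siSHC1. It rose by 0.49 ± 0.08 (limma adjusted p = 0.0260), with every siSHC1 value above every other. COX7A2 stood at 379 and 423 FPKM after siControl, 439 and 437 after siNCOA3, and 488 and 518 after siSHC1. It rose by 0.29 ± 0.06 (limma adjusted p = 0.0399), and the siNCOA3 libraries lay above those of siControl and below those of siSHC1. ATP5J2 stood at 659.7 and 686 FPKM after siControl, 794 and 811 after siNCOA3, and 838 and 863 after siSHC1. It rose by 0.30 ± 0.06 (limma adjusted p = 0.0351), and its siNCOA3 values lay between those of siControl and siSHC1. Leaving out the siControl library of 24 h or of 48 h, or the siSHC1 library of 48 h, left 0 of the 4 called, and leaving out the siSHC1 library of 24 h left NDUFA3 and NDUFA7. Leaving out either siNCOA3 library called 7, these 4 with MT-CO2, MT-ND1 and MT-ND3, while without the filter on low values, or without trend and robust moderation, 0 were called.

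Other differences after siSHC1 did not pass the test. ATP5E, the epsilon subunit of ATP synthase, was 0.31 ± 0.08 higher (limma adjusted p = 0.0679). UQCR11 and UQCRQ, small subunits of complex III, were 0.23 ± 0.09 and 0.20 ± 0.07 higher (limma adjusted p = 0.178 and 0.129), and COX7B 0.23 ± 0.09 (limma adjusted p = 0.180). UQCR11 was at 0.10 at 24 h and 0.37 at 48 h, and over the alternatives from 0.085 to 0.38, UQCRQ from 0.13 to 0.27 and COX7B from 0.14 to 0.31. In all 4 the siSHC1 libraries lay above the siControl ones.

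**Figure D4:**
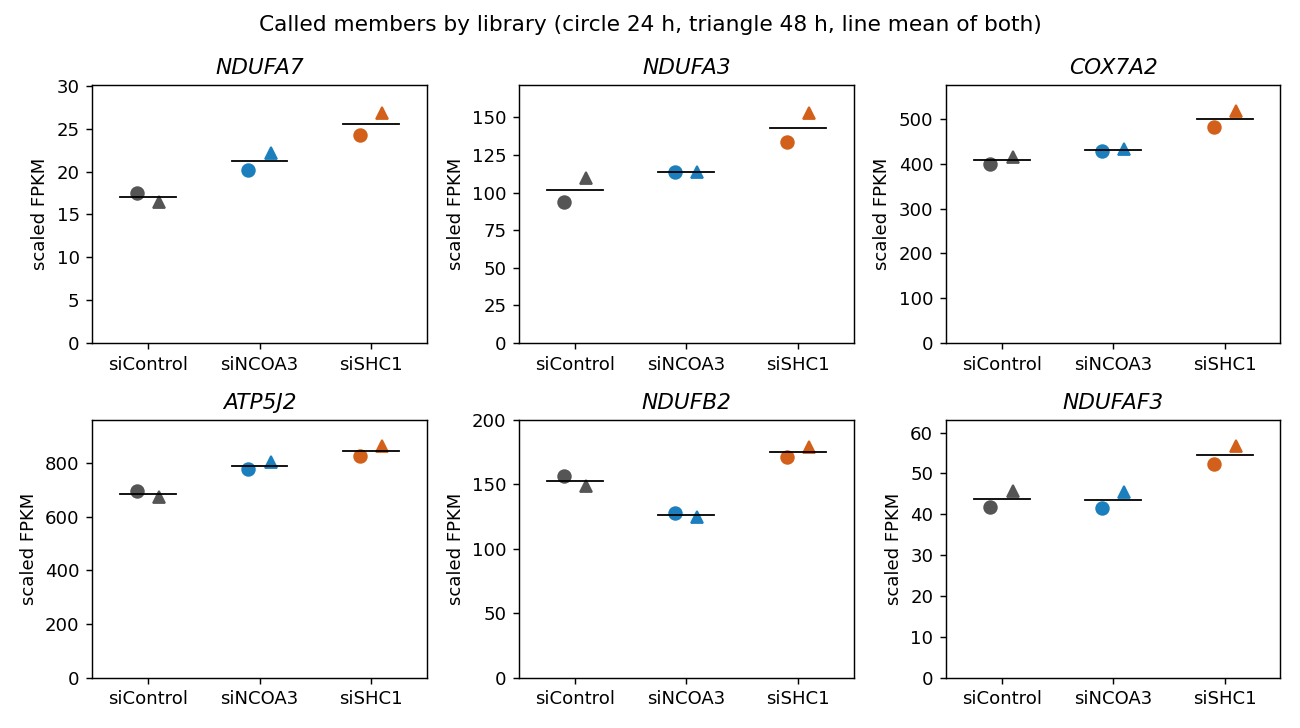
Scaled FPKM of the 6 called members by library, with a panel per gene, siRNAs on the horizontal axis, circles for 24 h, triangles for 48 h and a line at the mean of both, on axes from 0. The siSHC1 libraries are the highest in every panel, and in NDUFB2 the siNCOA3 libraries are the lowest.

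Both knockdowns were compared with the same 2 siControl libraries, so their differences share whatever those libraries hold, and siSHC1 was also compared with siNCOA3 directly. Here 2 members rose, NDUFB2 and NDUFAF3, a factor needed to assemble complex I, or 1.94% of tested members where 9.74% of all tested genes were called and 5.35% were called higher. No member fell. In 30 members (29.1%) both siSHC1 libraries were above both siNCOA3 libraries, against 29.5% of all tested genes, and in 20 (19.4%) both were below, against 28.8%. At an unadjusted p under 0.05 there were 21 members (20.4%), against 29.4%.

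NDUFB2 was 0.46 ± 0.07 higher after siSHC1 than after siNCOA3 (limma adjusted p = 0.0146), with siControl between them. Against siControl it differed by 0.20 ± 0.07 after siSHC1 (limma adjusted p = 0.139). NDUFAF3 stood at 39.7 and 46.5 FPKM after siControl, 42.6 and 45.9 after siNCOA3, and 53.1 and 56.6 after siSHC1. It rose by 0.32 ± 0.08 against siNCOA3 (limma adjusted p = 0.0477), and was 0.31 ± 0.08 higher than in siControl (limma adjusted p = 0.0637). NDUFAF3 was not called when any 1 of the 6 libraries was left out. NDUFB2 was lost without siSHC1 or siNCOA3 at 48 h, where 0 members and only NDUFC2-KCTD14 (lower) were called, and both were lost without the filter on low values. Without siNCOA3 at 24 h, 4 were called (NDUFB2, MT-CO2, ATP5G1 and MT-ND6), and without siSHC1 at 24 h NDUFAF6 was called beside NDUFB2.

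Among members that did not pass, NDUFA9, a subunit near the ubiquinone site of complex I, stood at 27.5 and 34.3 FPKM after siControl, 36.6 and 36.1 after siNCOA3, and 28.3 and 28 after siSHC1. The 2 siSHC1 libraries were below both siNCOA3 libraries, a difference of -0.34 ± 0.09 (limma adjusted p = 0.0597). The 3 genes of the c subunit of ATP synthase encode the same mature protein. ATP5G1 was -0.36 ± 0.10 against siNCOA3 (limma adjusted p = 0.0679), ATP5G2 -0.21 ± 0.08 and ATP5G3 -0.09 ± 0.07, with limma adjusted p of 0.116 and 0.438. Their summed FPKM was 379 and 353 after siControl, 443 and 434 after siNCOA3 and 392 and 353 after siSHC1. NDUFAF6, another assembly factor of complex I, stood at 13.8 and 14.4 FPKM after siControl, 16.8 and 17.4 after siNCOA3, and 14.3 and 9.94 after siSHC1, a difference of -0.47 ± 0.14 (limma adjusted p = 0.0776). Over the alternatives ATP5G1 ran from -0.52 to -0.19 and NDUFAF6 from -0.71 to -0.23. NDUFAF7, a methyltransferase that acts on complex I, stood at 7.05 and 10.2 FPKM after siControl, 7.04 and 6.3 after siNCOA3, and 6.77 and 8.18 after siSHC1. It differed by -0.35 ± 0.14 between siNCOA3 and siControl (limma adjusted p = 0.460), from -0.58 to -0.13 over the alternatives, and only the siControl library of 48 h stood above 10 FPKM.

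The fitted differences of the mitochondrial transcripts were not all alike, but whether these transcripts differ from each other was not tested. After siNCOA3 all 7 members of complex I were above 0 in the fit over both times, with a median of 0.11. At 24 h their median was 0.02, with 5 of 7 above 0, and at 48 h 0.14, with 7 of 7. In contrast, MT-ATP8 was at -0.10 ± 0.06 and MT-ATP6 at -0.04 ± 0.04 (limma adjusted p = 0.620 and 0.773), MT-ATP6 turning to 0.00785 without scaling. MT-ND1, a core subunit of complex I, was at 0.14 ± 0.06. None of the 13 passed the test in any comparison with all libraries. After siSHC1 the largest were MT-CO2, a core subunit of complex IV that takes electrons from cytochrome c, with 0.20 ± 0.05, MT-CYB, cytochrome b of complex III, with 0.19 ± 0.05, and MT-ND3 with 0.19 ± 0.05 (limma adjusted p = 0.0617, 0.0777 and 0.0855). MT-CO2 stood at 7184 and 8570 FPKM after siControl, 8173 and 8173 after siNCOA3, and 8882 and 9626 after siSHC1. MT-CYB stood at 2485 and 2990 FPKM after siControl, 2802 and 2932 after siNCOA3, and 3187 and 3206 after siSHC1. In both, the siSHC1 libraries were above all 4 others. MT-CO2 was 1.21 to 1.23 times MT-CO1 in the siControl and siNCOA3 libraries and 1.30 and 1.39 times after siSHC1.

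**Figure D5:**
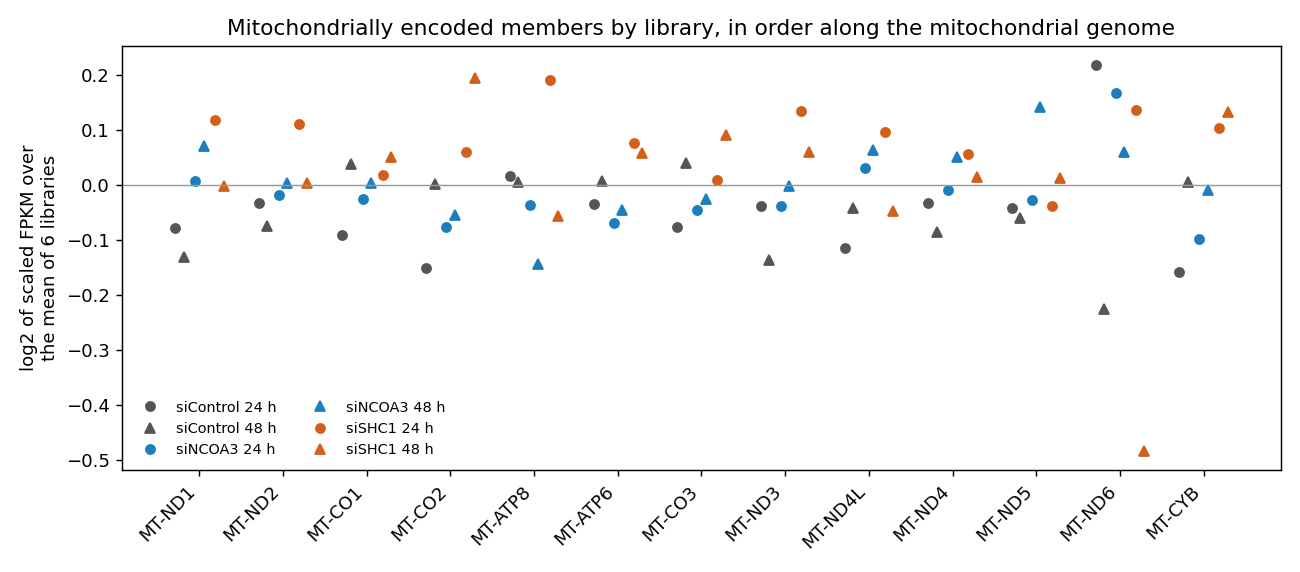
Scaled FPKM of each mitochondrially encoded member by library, as log2 of its value over the mean of the 6 libraries, in order along the mitochondrial genome, with circles for 24 h and triangles for 48 h. MT-ND6 has the widest spread, with the siSHC1 library of 48 h lowest, and MT-CO2 is highest in the siSHC1 libraries.

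Between 24 h and 48 h no member passed the test (limma, 0 of 103, where 0.0257% of all tested genes were called), with 8 at an unadjusted p under 0.05 (7.77%), against 14.2% of all tested genes. In 2 members (NDUFA2 and NDUFAF1) all 3 libraries of 48 h were above all 3 of 24 h, against 5.36% of all tested genes, and in 1 they were below, against 5.22%. That one was MT-ND6, which was 0.39 ± 0.09 lower at 48 h (limma adjusted p = 0.281). The difference was -0.44 after siControl, -0.11 after siNCOA3 and -0.62 after siSHC1. Its share of the summed FPKM of the other mitochondrial members, per 100, was 0.517 and 0.372 after siControl, 0.494 and 0.458 after siNCOA3, and 0.439 and 0.301 after siSHC1, so the ratio to the rest moved the same way as the level. Leaving out either siNCOA3 library called it. Of nuclear members NDUFC2 was -0.24 ± 0.10 (limma adjusted p = 0.352), with values of 144 and 109 FPKM after siControl and 154 and 128 FPKM after siSHC1, but 148 and 149.8 FPKM after siNCOA3.

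Nuclear members were short, and other short genes were looked at beside them. The members had a median transcript length of 953 bases, against 3059.5 bases for all tested genes with a transcript, and 47 of 88 were under 1000 bases. Among genes of 500 to under 1000 bases the 587 other genes had medians of 0.07 after siNCOA3 and 0.08 after siSHC1, and the 44 members 0.12 and 0.13. In that range both knockdown libraries were above both siControl libraries in 35.6% of other genes and 65.9% of members after siNCOA3, and in 34.1% and 56.8% after siSHC1. The shares of other genes after siNCOA3 were 23.3% at 1000 to under 2000 bases, 18.6% at 2000 to under 4000 bases and 16.7% from 4000 bases, and it held for 8 of 19, 7 of 16 and 3 of 6 members. After siSHC1 they were 28.5%, 22.9% and 21.0% of other genes, and 7, 8 and 2 members. Under 500 bases the 35 other genes went the other way, with medians of -0.03 after siNCOA3 and -0.25 after siSHC1 and shares of 14.3% and 22.9%, while all 3 members there were above both siControl libraries in each comparison. The part of length in the result was not tested.

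Other genes of the pathway came from lists of assembly factors, nuclear regulators, the citrate cycle and hypoxia switches. Further lists held electron carriers with ubiquinone synthesis, and mitochondrial transcription with RNA processing and DNA replication. No gene of these lists passed the test after siNCOA3 or with time. After siSHC1, 7 of the 105 list genes tested (6.67%) rose against siControl and 0 fell, where 3.11% of all tested genes were called higher and 3.32% lower. In the 21 assembly factors of complex IV these were COX17, a copper chaperone, with 0.40 ± 0.09, and PET100 with 0.40 ± 0.08 (limma adjusted p = 0.0455 and 0.0363), while the median of the list was -0.01. In the 14 genes of electron carriers and ubiquinone synthesis it was ETFB, a subunit of the electron transfer flavoprotein, with 0.52 ± 0.09 (limma adjusted p = 0.0280). In the 17 genes of the citrate cycle they were IDH3G and OGDH, dehydrogenase subunits, with 0.51 ± 0.10 and 0.38 ± 0.08 (limma adjusted p = 0.0351 and 0.0393). Of the 6 hypoxia switches tested, BNIP3, a mitophagy receptor, rose by 0.66 ± 0.09 and PDK1, which blocks pyruvate dehydrogenase, by 0.48 ± 0.10 (limma adjusted p = 0.0141 and 0.0405). None of the 7 assembly factors of complex I outside the members, the 4 of complex II, the 6 of complex III or the 4 of complex V was called, and NUBPL was at 0.52 ± 0.13 after siNCOA3 (limma adjusted p = 0.315). CYC1, held in the list of electron carriers, was at 0.24 ± 0.09 after siNCOA3 and 0.13 ± 0.09 after siSHC1 (limma adjusted p = 0.411 and 0.385).

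Against siNCOA3, the same 7 genes (6.67%) were called higher after siSHC1 and 3 (2.86%) lower, where 5.35% of all tested genes were called higher and 4.4% lower. TFB2M, a mitochondrial transcription factor, was lower by 0.48 ± 0.11 and C10orf2, the mitochondrial DNA helicase, by 0.55 ± 0.13 (limma adjusted p = 0.0384 and 0.0444). ESRRA, the oestrogen-related receptor alpha, was lower by 0.58 ± 0.10 (limma adjusted p = 0.0206). None of these 3 genes was called against siControl in either knockdown. Relative to siControl, ESRRA was at 0.34 after siNCOA3 and -0.23 after siSHC1, C10orf2 at 0.35 and -0.20, and TFB2M at 0.04 and -0.45. The 18 genes of mitochondrial transcription, RNA processing and DNA replication had a median of -0.15 after siSHC1, with 6 above 0, and 0.04 after siNCOA3, against siControl. Over 15 alternatives, the 7 calls against siControl passed in 5 (COX17) to 9 (BNIP3, ETFB and IDH3G), and the 10 against siNCOA3 in 3 (PET100) to 12 (BNIP3 and ESRRA). PPARGC1A and PPARGC1B, coactivators of mitochondrial biogenesis, were below 1 FPKM in all libraries and were not tested.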

How the data were processed

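Per the labels' protocols, Trizol was used for RNA and a stranded mRNA kit for libraries. The authors deposited FPKM for 20111 gene symbols in 6 libraries. The tools STAR, DESeq2 and Cufflinks and the build hg19 are named per the submitters' processing notes. No roles, versions or use of strand are given in the sources used here. The table is named for read counts, but its values are not whole, so limma replaced the count test that had been planned. FPKM were scaled by the median of ratios over 11042 genes, with factors of 0.947 to 1.02. Genes with at least 1 scaled FPKM in at least 2 libraries (11690) were tested on log2(scaled FPKM + 1), with pseudocount 1. The model was fitted in R 4.3.3 by limma 3.58.1, whose moderation used a trend and was robust, with additive siRNA and time terms over all 6 libraries and 2 residual degrees of freedom. P-values were adjusted by Benjamini-Hochberg over all tested genes, with a threshold of 0.05. The script was tested on simulated data. Summaries used pandas 2.3.3 and numpy 2.4.6, and plots matplotlib 3.10.9, all in Python 3.11.15.

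No overlap means that every library of a group lay beyond every library of the other. The members, lists and rules were chosen with earlier results of these data known. The rule for named genes takes the targets, the mitochondrial members, every called member and up to 2 members per complex and comparison with the largest difference and a mean of at least 5 FPKM. It adds isoforms, the highest and lowest member of each complex, members that encode no subunit, and up to 3 genes per list. Other genes named were chosen after their values were seen. Promoter letters, transcript length and ratios between gene pairs were added after seeing the data. Transcript lengths came from GENCODE for GRCh38, matched for 97.8% of tested genes. The alternatives were no scaling, equal totals, other filters and pseudocounts, no trend or robust moderation, 1 model term, and leaving out each library.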

Additional observations from a re-analysis of the deposited data

Results flagged for a closer look

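Some values lay on opposite sides of siControl (or of siNCOA3) at 24 h and 48 h, by at least 1% for sums and their ratios and 0.2 for log2 differences. With 1 library per siRNA and time, the difference between the times was not tested. After siSHC1 the ratio of mitochondrial to nuclear sums differed from siControl by 3.28% at 24 h and -7.65% at 48 h. By complex, this ratio after siSHC1 differed by 2.26% and -5.23% in complex I, 13.2% and -4.07% in complex III, 2.35% and -4.55% in complex IV, and 2.99% and -12.8% in complex V. Without MT-ATP8 and ATP5J2, the highest member of each genome, the complex V ratio was 6.80 and 7.17 after siControl. After siSHC1 it was then 7.07 and 6.95, still on opposite sides. The mitochondrial sum of complex V after siSHC1 was at 11.3% and -1.63%. After siNCOA3 the mitochondrial sum was at 4.29% and -1.07% in complex III, and in complex IV it was above siControl at 24 h and at -3.62% at 48 h.

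Among single transcripts, NDUFB5, an accessory subunit of complex I, was at -0.41 after siNCOA3 at 24 h and at 0.21 at 48 h. NDUFS3, a core subunit, was at 0.50 between siSHC1 and siNCOA3 at 24 h and at -0.25 at 48 h. NDUFAF4, an assembly factor, was at -0.32 after siSHC1 at 24 h and at 0.28 at 48 h. The readthrough NDUFC2-KCTD14 was at 0.41 after siNCOA3 at 24 h and at -0.40 at 48 h.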

How the results depend on the processing

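Every alternative listed gave 0 called members for siNCOA3 against siControl. The 4 members called after siSHC1 became 2 with equal totals, 2 with equal nuclear totals, 0 with no filter, 0 with no trend or robust moderation, 1 with no time term, and 0 to 7 leaving out each library. The 2 called against siNCOA3 became 1 with no scaling, 1 with equal nuclear totals, 0 with no filter, 4 with a filter at 5 FPKM, 1 with no trend, 1 with no time term, 1 over subunits only, and 0 to 4 leaving out each library. For time the range was 0 to 1. The nuclear median after siNCOA3 was 0.147 with no scaling, 0.0761 with equal totals, 0.0716 with equal nuclear totals and 0.0781 to 0.115 leaving out each library, and the mitochondrial median 0.0970 with no scaling and 0.0282 to 0.0936. After siSHC1 the nuclear median was 0.138, 0.0411 and 0.0489 under these scalings and 0.0864 to 0.127 leaving out each library, and the mitochondrial median 0.0316 with equal totals, 0.0396 with equal nuclear totals and 0.0618 to 0.149. Between the knockdowns the nuclear median was -0.0220 with equal totals, -0.00974 with equal nuclear totals and -0.00502 to 0.0257, and the mitochondrial median with time -0.0352 to 0.0326. The scalings shift all tested genes nearly alike, so the medians under them do not set members against other genes. The ratio of mitochondrial to nuclear sums over all members was 10.6 and 10.9 after siControl and 10.1 and 9.92 after siNCOA3. Without the highest member of each genome it was 8.76 and 9.06 after siControl, 8.49 and 8.59 after siNCOA3, and 9.08 and 8.70 after siSHC1. MT-ATP6 turned to 0.00785 after siNCOA3 with no scaling. Leaving out each library turned the sign of SDHB after siNCOA3 (-0.077 to 0.17), SDHC after siNCOA3 (-0.054 to 0.34), after siSHC1 (-0.27 to 0.13) and with time (-0.020 to 0.22), and UQCR11 with time (-0.0066 to 0.16). The cause was not tested. Of 78 differences of single genes, 28 moved by over 1.5 times in at least 1 alternative, 0 of them called with all libraries. The labels carry no replicate numbers, and the time term already compares siRNAs within each time, so the fit with no time term is the one without pairing.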
